A study of Mus musculus with 9 samples.

Results

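The genes described here are 9 genes widely used to tell regulatory T cells from other CD4+ T cells, *Foxp3*, *Ikzf2*, *Ikzf4*, *Lrrc32*, *Nrp1*, *Gpr83*, *Izumo1r*, *Entpd1* and *Nt5e*. They were taken by their gene names from the 55487 genes of the expression table, and each name had 1 row. RNA-seq was made from CD4+ T cells isolated by negative selection from the spleens of female wild-type (*Trail-r*+/+) C57BL/6 mice, 6 to 7 weeks old, in 3 groups of 3 libraries. Cells of one group stayed in medium without Abs or TRAIL, for a time that is not given in the sources used here. Those of the second were stimulated for 24 h with Abs against CD3 (3 µg/ml), a component of the T cell receptor (TCR) complex, and against the costimulatory receptor CD28 (2 µg/ml). The last received the same Abs for 24 h together with TRAIL, a member of the tumor necrosis factor family of cytokines, at 10 µg/ml, and is called TRAIL-treated activated T cells. The labels do not say whether the 3 libraries of a group came from separate mice, so every p-value measures only the spread between these libraries, which may be technical.

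Values are TPM, a relative transcript abundance corrected for transcript length and scaled to the same total in every library. Read depth is therefore unknown, and the error of a value rests on 3 libraries per group. All 9 genes passed the filter of at least 1 TPM in at least 3 libraries, as did 15536 genes in all. Differences were tested with limma on log2(TPM + 1) in a single fit of the 9 libraries. Here called means that the Benjamini-Hochberg adjusted p over all genes tested was under 0.05 and that the log2 fold change was 1 or more in size. An exact permutation test of 3 libraries against 3 cannot go below a p of 0.1 and was not used for single genes. Between 13691 and 14909 genes reached 1 TPM per library. The T cell label was checked with 9 T cell markers, among them *Cd3e*, *Cd4* and *Trac*, none of which was at the lowest values of the table. Their summed level was 3634 to 3897 TPM in medium, 3037 to 3098 TPM after stimulation and 3711 to 4037 TPM in TRAIL-treated activated T cells. The libraries also held RNA of markers of other cell types, whose levels are given with the results they accompany.

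Regulatory T cells are CD4+ T cells that restrain other immune cells, and the transcription factor *Foxp3* is required for their development and function. *Ikzf2* (Helios) and *Ikzf4* (Eos) encode zinc finger transcription factors of the Ikaros family, both abundant in regulatory T cells, and Eos is a partner of *Foxp3* in gene repression. *Lrrc32* encodes GARP, which holds latent TGF-beta on the cell surface, and *Nrp1* encodes neuropilin-1, a co-receptor for semaphorins and vascular endothelial growth factor that marks many regulatory T cells of thymic origin in mice. *Gpr83* encodes a G protein-coupled receptor, and *Izumo1r* encodes folate receptor 4, a surface protein high on regulatory T cells that is also the egg receptor for sperm known as Juno. *Entpd1* (CD39) and *Nt5e* (CD73) encode ectoenzymes that act in series, the first degrading extracellular ATP and ADP to AMP and the second AMP to adenosine, which dampens T cell responses. None of these genes is limited to regulatory T cells. Conventional T cells switch on several of them on activation, and *Nrp1*, *Entpd1* and *Nt5e* are used by endothelial, myeloid or B cells as well. In RNA of a whole population, fewer cells of a type and less RNA per cell cannot be told apart.

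The genes lie on 7 chromosomes of the mouse GRCm38 assembly. *Foxp3* (ENSMUSG00000039521) spans chrX:7573644-7595245 on the plus strand. Its exons overlap the spans of the opposite-strand genes *Ppp1r3f*, *Gm36995* and *Ccdc22* and of the same-strand non-coding gene *Flicr*. Whether they overlap exons of those genes was not examined. *Ccdc22* had mean levels of 17.2 TPM in medium, 18.4 TPM after stimulation and 16.0 TPM with TRAIL. *Ppp1r3f* had 6.94, 2.30 and 6.57 TPM in the same order. The strand setting of the quantification is not given in the sources used here, so reads from any shared exon stretches cannot be told apart. *Ikzf2* (ENSMUSG00000025997) spans chr1:69531214-69687245 and *Ikzf4* (ENSMUSG00000002578) chr10:128630843-128669358, both on the minus strand. The span of *Ikzf4* is as the table gives it and is longer than in the GENCODE annotation used here, where the gene ends at 128645991, so its values may hold reads from the added stretch. *Lrrc32* (ENSMUSG00000090958) is at chr7:98489283-98502181, *Nrp1* (ENSMUSG00000025810) at chr8:128358604-128503363, *Entpd1* (ENSMUSG00000048120) at chr19:40612366-40741602 and *Nt5e* (ENSMUSG00000032420) at chr9:88327197-88372092, all on the plus strand. *Gpr83* (ENSMUSG00000031932, chr9:14860210-14870789, plus strand) and *Izumo1r* (ENSMUSG00000031933, chr9:14885814-14903949, minus strand) are neighbours that point towards each other, with 15024 bases and 0 annotated genes between them. An intron of *Entpd1* holds the processed pseudogene *Gm8783*, listed at 12.7, 20.8 and 41.4 TPM, whereas *Lrrc32*, *Gpr83*, *Izumo1r* and *Nt5e* overlap no other gene.

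The RefSeq promoter sequences (GRCm38.p6, 250 bases before each start) held windows for 6 of the 9 genes, and none was given for *Ikzf2*, *Ikzf4* and *Lrrc32*. A total of 4 stretches are shown, all 5′ to 3′ on the strand of the gene and free of its GENCODE exons. The *Gpr83* and *Izumo1r* stretches lie outside the annotated gene, whereas those of *Foxp3* and *Nrp1* lie within it, between the exon of a longer transcript and the start used by RefSeq. They stand for the gene called in no comparison (*Foxp3*), a gene lower after stimulation (*Nrp1*) and the neighbours that were both called lower with TRAIL than with Abs alone (*Gpr83* and *Izumo1r*). Capitals mark the letters GGAAA on either strand, which read TTTCC along the gene where they lie on the other strand, the core bound by NFAT, a transcription factor activated by TCR signals. The *Foxp3* stretch is chrX:7579426-7579566 (plus strand), *Nrp1* is chr8:128358823-128359072 (plus strand), *Gpr83* is chr9:14859960-14860209 (plus strand) and *Izumo1r* is chr9:14903950-14904017 (minus strand).
Foxp3: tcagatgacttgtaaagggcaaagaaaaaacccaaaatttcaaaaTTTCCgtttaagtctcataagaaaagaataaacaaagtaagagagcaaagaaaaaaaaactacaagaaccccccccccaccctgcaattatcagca
Nrp1: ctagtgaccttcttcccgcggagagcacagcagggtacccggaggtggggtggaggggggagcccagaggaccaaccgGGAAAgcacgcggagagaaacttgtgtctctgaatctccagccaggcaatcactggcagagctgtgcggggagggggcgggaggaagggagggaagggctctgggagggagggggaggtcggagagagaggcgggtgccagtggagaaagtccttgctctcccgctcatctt
Gpr83: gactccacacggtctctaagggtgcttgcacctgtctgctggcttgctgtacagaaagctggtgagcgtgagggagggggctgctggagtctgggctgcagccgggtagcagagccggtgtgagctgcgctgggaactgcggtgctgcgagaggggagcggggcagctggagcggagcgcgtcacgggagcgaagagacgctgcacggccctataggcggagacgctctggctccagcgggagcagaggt
Izumo1r: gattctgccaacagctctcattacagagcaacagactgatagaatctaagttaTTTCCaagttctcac

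The core was found once in each of the 2 windows of *Foxp3* and in those of *Nrp1* and *Izumo1r*, in none of the *Gpr83* or *Nt5e* windows, and 2 times at the downstream of the 2 starts of *Entpd1* but not at the upstream one. It occurs in 55.6% of all 32851 promoter windows of this length, so its presence is common. The windows of the upstream and downstream *Foxp3* starts had 37.6 and 46.0% G and C, and 7.92 and 27.1% of all windows had less. The upstream one also held TATAAA, a core promoter element, 32 bases before the start, as did 7.59% of all windows. The *Nrp1*, *Gpr83* and *Nt5e* windows had 64.4, 66.8 and 72.0% G and C beside a median of 52.4%, and *Nt5e* had 21 CpG dinucleotides beside a median of 6. The AP-1 site TGANTCA (6.75% of windows) and the forkhead site GTAAACA (3.17%) were found in none of the windows of these genes. The STAT site TTCNNNGAA (7.02%) was found in that of the downstream *Foxp3* start and the RUNX site TGTGGT (14.0%) in that of *Izumo1r*, each searched on both strands. The NFAT core can share letters with the STAT site, as it does upstream of that *Foxp3* start. The *Nt5e* window begins inside an annotated exon of the gene. The TATAAA of *Foxp3* and the RUNX site of *Izumo1r* lie past the first annotated exon base of their windows, 109 and 182 bases before the start. These matches describe the letters of the windows only.

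**Figure D1:**
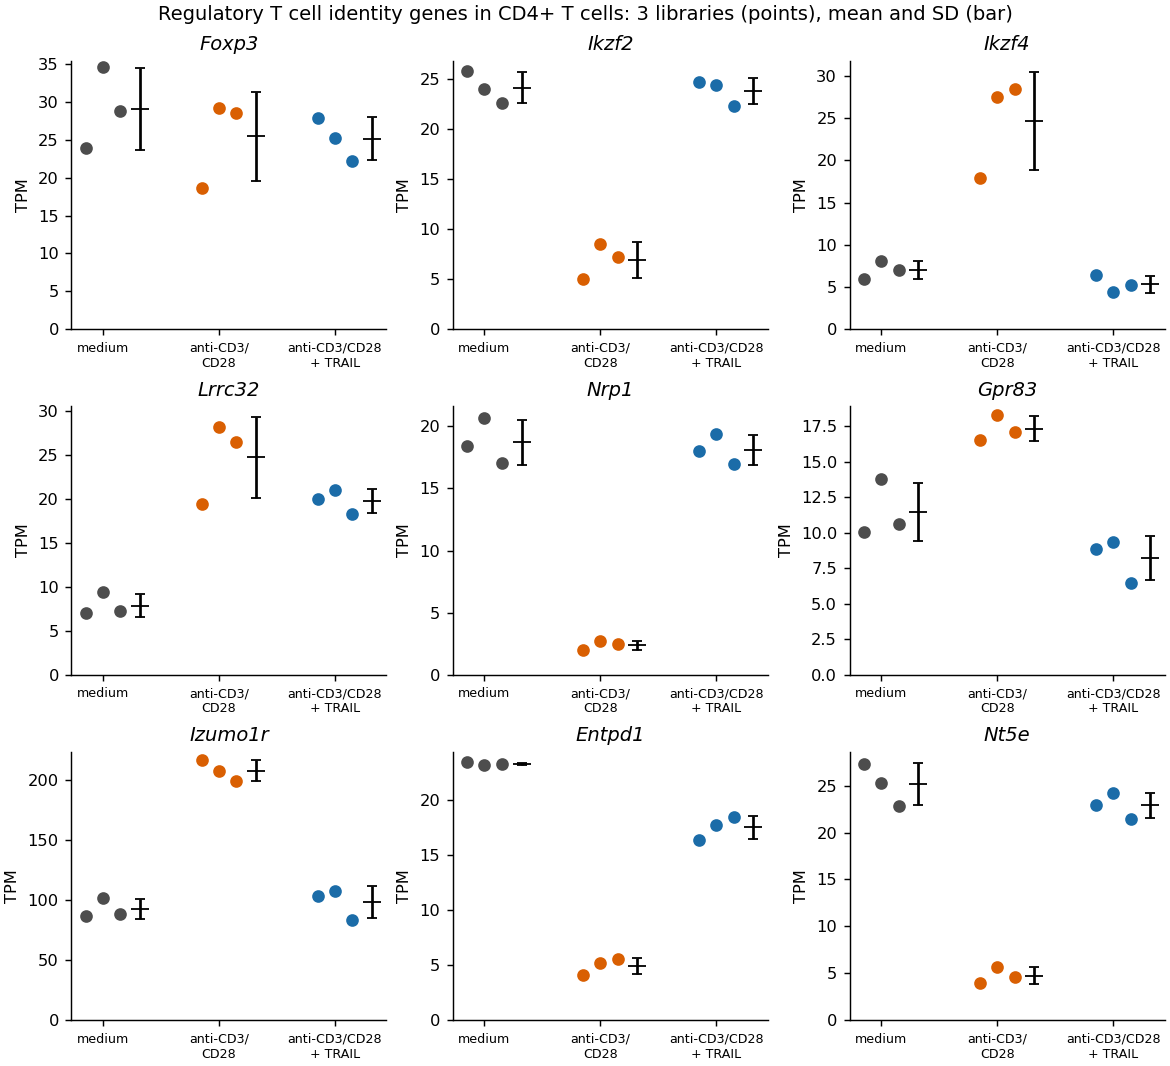
TPM of each gene in the 3 libraries of each group (points), with the group mean and SD (bar), on axes that start at 0. Foxp3 overlaps in all groups, Ikzf2, Nrp1, Entpd1 and Nt5e are lowest in the stimulated libraries, Ikzf4, Gpr83 and Izumo1r are highest there, and Lrrc32 is high in both groups that received Abs.

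The level of *Foxp3* did not pass the test in any comparison. *Foxp3* was at 23.9, 34.6 and 28.7 TPM in the medium libraries, at 18.7, 29.3 and 28.5 TPM in the stimulated libraries and at 27.9, 25.2 and 22.2 TPM in those of TRAIL-treated activated T cells. The ranges of all groups overlapped, and the lowest value was that of stimulated replicate 1. Against medium, stimulation gave a log2 fold change of -0.20 (SE 0.19, 95% interval -0.61 to 0.22, limma adjusted p = 0.375). TRAIL-treated against stimulated cells gave 0.00 (interval -0.42 to 0.42, limma adjusted p = 0.994), and against medium -0.19 (interval -0.61 to 0.22, limma adjusted p = 0.458). These intervals allow a change of up to about 0.6 on the log2 scale. Without stimulated replicate 1 the first difference was 0.01 and the second -0.20, neither of which passed the test.

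Relative to other T cell genes the picture depended on the gene taken as the base. The ratio of *Foxp3* to *Cd4* was 7.55% ± 0.81 in medium, 11.5% ± 0.46 after stimulation and 6.54% ± 0.17 in TRAIL-treated activated T cells (mean ± SD, n = 3). *Cd4*, the co-receptor of helper T cells, was itself at 384 ± 44.9, 220 ± 44.0 and 384 ± 46.7 TPM in these groups. The ratio of *Foxp3* to *Cd3e*, a TCR-associated chain, was 7.28% ± 0.22, 6.86% ± 1.35 and 8.47% ± 0.14. On the first base the stimulated libraries stood above all others, and on the second the TRAIL-treated libraries did. No test was made of these ratios.

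Of the 9 genes, 7 were called changed in stimulated against medium cells, 3 of them higher and 4 lower, whereas 31.9% of all genes tested were called in this comparison, 12.4% higher and 19.5% lower. In TRAIL-treated against stimulated cells 7 of the 9 were again called, 4 higher and 3 lower, beside 30.9% of all genes tested, 16.6% higher and 14.3% lower. Against medium, TRAIL-treated activated T cells differed in 1 of the 9, which was higher, beside 4.62% of all genes tested, 2.49% higher and 2.13% lower. Without the fold threshold, 8, 7 and 2 of the 9 genes passed, beside 68.7, 67.1 and 32.6% of all genes tested. The stimulated libraries enter both of the first comparisons, so the opposite signs in them are not separate evidence. The median log2 fold change over the 9 genes was -0.20, 0.00 and -0.13 in the 3 comparisons, beside -0.15, 0.01 and -0.18 over all genes tested. The 3 libraries of each group lay apart for 8 of the 9 genes in the first comparison, for 7 in the second and for 3 in the last, where 72.6, 70.4 and 50.6% of all genes tested did so.

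**Figure D2:**
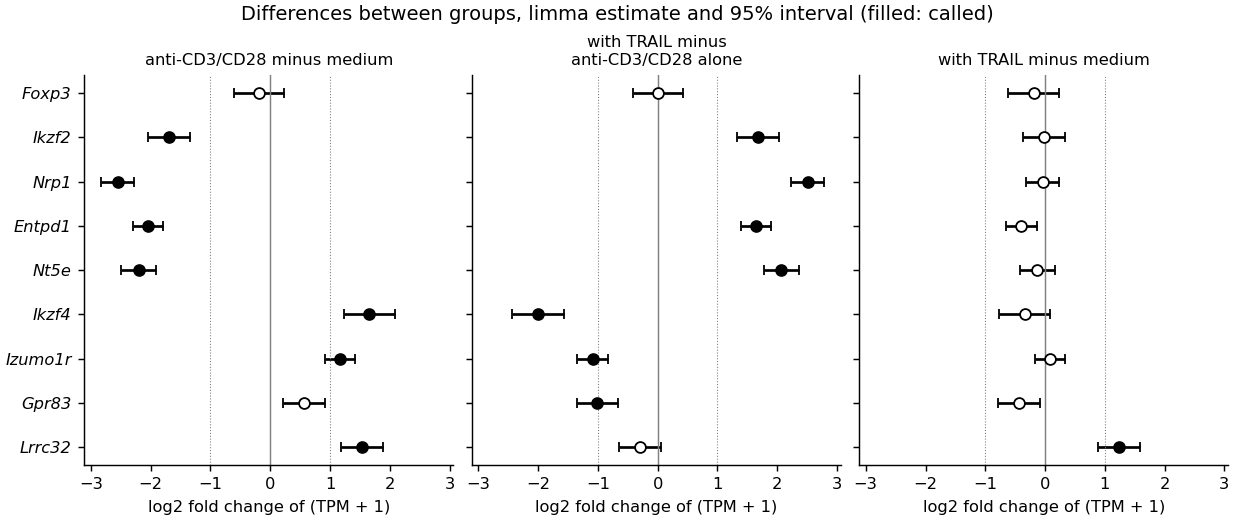
Estimated log2 fold change of (TPM + 1) with its 95% interval for each gene in the 3 comparisons, with filled points where the gene was called changed. The intervals of Nrp1 reach furthest from 0 in the first and second panels, and Lrrc32 is the gene called in the last panel.

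Helios and Eos RNA moved in opposite directions. *Ikzf2*, which encodes Helios, was at 25.8, 24.1 and 22.7 TPM in medium, at 5.01, 8.52 and 7.18 TPM after stimulation and at 24.7, 24.5 and 22.3 TPM in TRAIL-treated activated T cells. Every stimulated library was below every library of the other groups, which overlapped each other. *Ikzf2* was 3.50-fold lower in stimulated than in medium cells by mean TPM (log2 fold change -1.70, SE 0.16, limma adjusted p = 5.18e-06). It was 3.45-fold higher in TRAIL-treated than in stimulated cells (log2 fold change 1.68, limma adjusted p = 5.89e-06). Between TRAIL-treated and medium cells its log2 fold change was -0.02, with a 95% interval of -0.37 to 0.33 (limma adjusted p = 0.939).

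*Ikzf4*, which encodes Eos, was at 5.92, 8.05 and 7.05 TPM in medium, at 18.0, 27.5 and 28.5 TPM after stimulation and at 6.40, 4.41 and 5.21 TPM in TRAIL-treated activated T cells. The stimulated libraries were all above the others. *Ikzf4* was 3.52-fold higher in stimulated than in medium cells (log2 fold change 1.66, SE 0.19, limma adjusted p = 2.78e-05) and 4.62-fold lower with TRAIL than with Abs alone (log2 fold change -2.0, limma adjusted p = 7.19e-06). Against medium the TRAIL-treated cells gave -0.34, with an interval of -0.77 to 0.09 (limma adjusted p = 0.202). Within a library the ratio of *Ikzf2* to *Ikzf4* was 4.36, 2.99 and 3.22 in medium, 0.28, 0.31 and 0.25 after stimulation and 3.86, 5.56 and 4.28 with TRAIL. Helios RNA was thus the more abundant per transcript length in medium and TRAIL-treated cells, and Eos RNA in stimulated cells. *Foxp3* and *Ikzf4* came to nearly equal levels after stimulation, with *Ikzf4* at 96.7% ± 3.06 of *Foxp3*, beside 24.2% ± 0.82 in medium and 21.3% ± 3.29 with TRAIL (n = 3).

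The rest of the Ikaros family was described for comparison. *Ikzf1* (Ikaros), a regulator of lymphocyte development, was at 356 ± 40.0 TPM in medium, 216 ± 41.6 TPM after stimulation and 341 ± 44.7 TPM with TRAIL, differences that stayed under the fold threshold (log2 fold change -0.73 and 0.67 in the first and second comparisons, limma adjusted p = 0.00217 and 0.00382). *Ikzf5* (Pegasus) was at 44.8 ± 1.28, 19.97 ± 3.87 and 41.9 ± 2.34 TPM, was called lower with stimulation (log2 fold change -1.14, limma adjusted p = 3.07e-05) and higher with TRAIL than without (1.05, limma adjusted p = 5.89e-05). *Ikzf3* (Aiolos) was at 297 ± 39.9, 348 ± 146 and 187 ± 30.7 TPM and was called in no comparison. Its stimulated libraries ranged from 179 TPM in replicate 1 to 437 TPM in replicate 2. *Ikzf3* was lower with TRAIL than with Abs alone at a limma adjusted p under 0.05 but under the fold threshold, and these 2 groups overlapped. Of the 5 family members, 1 was called higher and 2 lower in the first comparison, 2 higher and 1 lower in the second and none by limma in the last, where 1 had an unadjusted p under 0.05.

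**Figure D3:**
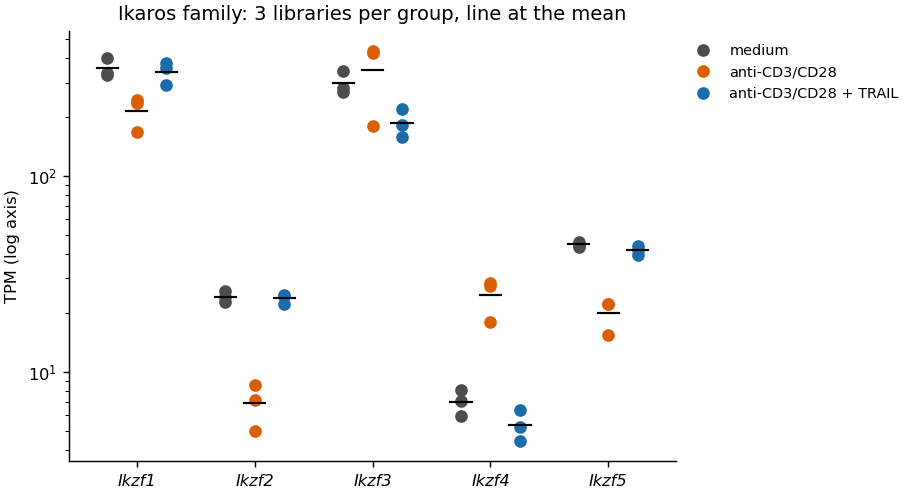
TPM of the 5 Ikaros family genes in each library on a log axis, with a line at each group mean. Ikzf4 is the family member whose 3 stimulated libraries (18.0 to 28.5 TPM) lie above all the others, whereas those of Ikzf1, Ikzf2 and Ikzf5 lie below.

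Among the surface genes, GARP RNA rose with stimulation and was also high with TRAIL. *Lrrc32* was at 6.99, 9.36 and 7.18 TPM in medium, at 19.4, 28.2 and 26.5 TPM after stimulation and at 19.9, 20.9 and 18.2 TPM in TRAIL-treated activated T cells. Both groups that received Abs were above medium in every library and overlapped each other. *Lrrc32* was 3.15-fold higher in stimulated than in medium cells (log2 fold change 1.53, SE 0.16, limma adjusted p = 1.1e-05) and 2.51-fold higher in TRAIL-treated than in medium cells (1.24, interval 0.88 to 1.59, limma adjusted p = 0.000413). It was the 1 gene of the 9 called in the latter comparison. Between TRAIL-treated and stimulated cells it differed by -0.30 on the log2 scale, with an interval of -0.65 to 0.05 (limma adjusted p = 0.118). Without stimulated replicate 1 this difference was -0.45 (limma adjusted p = 0.0126), still under the fold threshold. Relative to *Cd3e*, *Lrrc32* stood at 1.97% ± 0.10, 6.67% ± 1.01 and 6.69% ± 0.65, and relative to *Cd4* at 2.04% ± 0.11, 11.2% ± 0.41 and 5.16% ± 0.40. On both bases the groups with Abs were above medium in every library.

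Neuropilin-1 RNA had the widest change of the 9 genes in the first and second comparisons. *Nrp1* was at 18.4, 20.7 and 17.1 TPM in medium, at 1.97, 2.69 and 2.44 TPM after stimulation and at 18.0, 19.4 and 17.0 TPM in TRAIL-treated activated T cells. The stimulated libraries were below all others, which overlapped. By mean TPM *Nrp1* was 7.90-fold lower in stimulated than in medium cells (log2 fold change -2.55, SE 0.12, limma adjusted p = 4.13e-08) and 7.66-fold higher with TRAIL than with Abs alone (2.51, limma adjusted p = 5.47e-08). TRAIL-treated cells differed from medium by -0.04, with an interval of -0.32 to 0.23 (limma adjusted p = 0.82). Set beside *Foxp3* in the same library, *Nrp1* stood at 65.4% ± 10.2, 9.45% ± 1.01 and 72.6% ± 6.91 of its level (n = 3).

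The neighbours *Izumo1r* and *Gpr83* were highest in stimulated cells. *Izumo1r* was the most abundant of the 9 genes in every group, at 87.0, 102 and 88.0 TPM in medium, at 217, 208 and 199 TPM after stimulation and at 104, 108 and 83.0 TPM in TRAIL-treated activated T cells. It was called 2.25-fold higher in stimulated than in medium cells (log2 fold change 1.17, SE 0.12, limma adjusted p = 8.49e-06) and 2.12-fold lower with TRAIL than without (-1.08, limma adjusted p = 1.5e-05). Against medium it differed by 0.08 with TRAIL, with an interval of -0.17 to 0.34 (limma adjusted p = 0.612). The other genes of its family were scarcely measured: *Folr1* was at 0.0001 TPM in every library and *Folr2* at 0.19 TPM or less, so neither was tested.

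*Gpr83* was at 10.0, 13.8 and 10.6 TPM in medium, at 16.6, 18.3 and 17.1 TPM after stimulation and at 8.85, 9.33 and 6.44 TPM with TRAIL. The 3 groups lay apart from each other in order. The difference between stimulated and medium cells, 1.51-fold, was under the fold threshold (log2 fold change 0.57, SE 0.16, limma adjusted p = 0.00846). The gene was called 2.11-fold lower in TRAIL-treated than in stimulated cells (-1.01, limma adjusted p = 0.000231). Against medium its log2 fold change with TRAIL was -0.44 (interval -0.79 to -0.09, limma adjusted p = 0.0544), and all 3 libraries were lower. With a filter of 5 TPM its limma adjusted p was 0.0491, and under both rescalings its log2 fold change was -0.27 and -0.25, with adjusted p of 0.159 and 0.22. The ratio of *Gpr83* to *Izumo1r* was 0.124 ± 0.010 in medium, 0.0834 ± 0.0063 after stimulation and 0.0832 ± 0.0049 with TRAIL. The calls of both genes against stimulated cells lie close to the fold threshold. Under median-of-ratios scaling they were -0.92 for *Gpr83* and -0.99 for *Izumo1r*, under quantile normalization *Izumo1r* was -0.85, and without TRAIL replicate 3 they were -0.86 and -0.97, all under the fold threshold and all with an adjusted p under 0.05, as was *Gpr83* at -0.97 without stimulated replicate 2.

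Both ectonucleotidase RNAs fell with stimulation. *Entpd1* (CD39) was at 23.4, 23.2 and 23.3 TPM in medium, at 4.12, 5.17 and 5.51 TPM after stimulation and at 16.4, 17.7 and 18.4 TPM in TRAIL-treated activated T cells. The 3 groups did not overlap, and the TRAIL-treated libraries lay between the others. *Entpd1* was 4.73-fold lower in stimulated than in medium cells (log2 fold change -2.04, SE 0.11, limma adjusted p = 1.23e-07) and 3.55-fold higher with TRAIL than with Abs alone (1.65, limma adjusted p = 6.38e-07). Against medium it was at -0.39 with TRAIL, under the fold threshold (interval -0.65 to -0.14, limma adjusted p = 0.0255), a difference that no longer passed an adjusted p of 0.05 when the libraries were rescaled, without the filter on low values, or when any medium or TRAIL library except TRAIL replicate 3 was left out. *Nt5e* (CD73) was at 27.4, 25.3 and 22.8 TPM in medium, at 3.91, 5.69 and 4.61 TPM after stimulation and at 23.0, 24.2 and 21.5 TPM with TRAIL. It was 5.32-fold lower in stimulated than in medium cells (-2.20, SE 0.13, limma adjusted p = 2e-07) and 4.84-fold higher with TRAIL than with Abs alone (2.07, limma adjusted p = 3.44e-07). TRAIL-treated and medium cells overlapped and differed by -0.13, with an interval of -0.42 to 0.17 (limma adjusted p = 0.482). The ratio of *Nt5e* to *Entpd1* was 1.08 ± 0.09 in medium, 0.961 ± 0.132 after stimulation and 1.31 ± 0.13 with TRAIL, and the ranges of medium and TRAIL-treated libraries overlapped by a narrow margin.

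The order of the levels changed with these shifts. In medium *Izumo1r* was followed by *Foxp3*, *Nt5e*, *Ikzf2* and *Entpd1*, each of which overlapped the next, then by *Nrp1* and *Gpr83*, each apart from the next, and by *Lrrc32* and *Ikzf4*, which overlapped. After stimulation *Izumo1r* was followed by *Foxp3*, *Lrrc32*, *Ikzf4* and *Gpr83*, which overlapped in turn, and then by *Ikzf2*, *Entpd1* and *Nt5e*, with *Nrp1* lowest and apart. In TRAIL-treated activated T cells *Foxp3*, *Ikzf2* and *Nt5e* overlapped in turn, *Lrrc32*, *Nrp1* and *Entpd1* formed the next overlapping run, and *Gpr83* and *Ikzf4* stood apart at the end. The 9 genes together made up 227 to 261 TPM in medium, 305 to 333 TPM after stimulation and 214 to 253 TPM with TRAIL. Without *Izumo1r* the sums were 139 to 159, 87.6 to 125 and 131 to 146 TPM. Within the stimulated group replicate 1 was the lowest library for 8 of the 9 genes, the exception being *Izumo1r*.

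RNA of B cell, macrophage and monocyte, neutrophil and erythroid markers was, like that of *Ikzf2*, *Nrp1*, *Entpd1* and *Nt5e*, lowest in stimulated cells, whereas other marker lists followed in part or not. These 4 genes summed to 85.8 to 95 TPM in medium, 15 to 22.1 TPM after stimulation and 79.2 to 85.8 TPM with TRAIL. The 9 B cell markers, among them *Cd79a* and *Ms4a1*, summed to 2369 to 2471, 188 to 206 and 976 to 1106 TPM, and all 9 were called lower in the first comparison and higher in the second. The 11 macrophage and monocyte markers, among them *Lyz2*, *Csf1r* and *Adgre1*, summed to 1774 to 1889, 68.8 to 79.6 and 1422 to 1605 TPM, and all 11 were called in the same directions. All 8 neutrophil markers and all 7 erythroid markers were called lower with stimulation, and 7 of each were called higher with TRAIL than without. The neutrophil sum went from at least 844 TPM in medium to at most 48.1 TPM after stimulation and 500.2 to 603 TPM with TRAIL, and the erythroid sum from at least 2137 to at most 39.6 and then to 619 to 669 TPM. *Retnlg* among the neutrophil and *Slc4a1* among the erythroid markers were at the lowest values of the table in all 3 stimulated libraries. The 7 endothelial markers, of which 3 could be tested, summed to 208 to 219, 58.3 to 77.6 and 173 to 199 TPM, with 2 called lower and 1 higher in the first comparison and 1 each way in the second. *Pecam1* made up most of this sum, at 208.5 ± 5.91, 61.3 ± 10.7 and 184.5 ± 12.9 TPM in the 3 groups. The others tested were *Cdh5*, at 1.34 ± 0.26, 0.02 ± 0.03 and 0.85 ± 0.32 TPM, and *Egfl7*, at 0.84 ± 0.09, 7.47 ± 1.13 and 1.0 ± 0.25 TPM. *Emcn*, an endothelial marker, was at the lowest values in all medium and all stimulated libraries. The 7 platelet markers summed to 77.9 to 97.5, 25.4 to 43.9 and 41.4 to 58.5 TPM, and of the 6 tested 5 were called lower in the first comparison and none in the second, where 3 were higher at a limma adjusted p under 0.05 and 3 had an unadjusted p under 0.05. The dendritic cell markers were higher in sum after stimulation, from at most 139.8 TPM in medium to 179 to 193 TPM, although 7 of the 9 were called lower and 1 higher, and stood at 102 to 116 TPM with TRAIL, where 5 were called higher and 2 lower than with Abs alone. The rise of this sum was mainly that of *Bst2*, at 65.3 ± 4.1, 171.5 ± 9.9 and 61.7 ± 5.18 TPM in the 3 groups. The markers of CD8 T cells and NK cells summed to 259 to 284, 161 to 181 and 101 to 115 TPM, with 3 of the 7 called lower in the first comparison and 2 each way in the second. In TRAIL-treated against medium cells, where none of the 4 genes was called, 7 of the 9 B cell, 7 of the 7 erythroid, 5 of the 7 CD8 T cell and NK cell, 3 of the 6 platelet and 2 of the 8 neutrophil markers were called lower. In that comparison no macrophage and monocyte, dendritic cell, endothelial or T cell marker was called, although 2, 8, 0 and 1 of them were lower at a limma adjusted p under 0.05, and 1 T cell marker was higher. Of the T cell markers 1 of the 9 was called lower in the first comparison and none in the second, where 6 were higher at a limma adjusted p under 0.05 but under the fold threshold, and 7 had an unadjusted p under 0.05. The part of these other cells in the levels of *Ikzf2*, *Nrp1*, *Entpd1* and *Nt5e* was not tested.

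**Figure D4:**
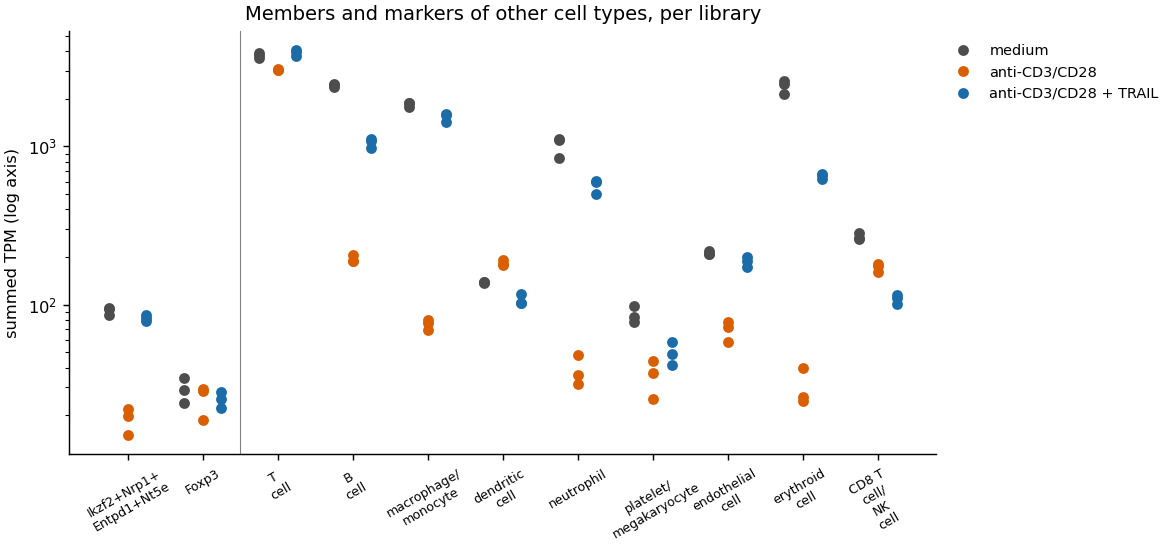
Summed TPM per library, on a log axis, of Ikzf2, Nrp1, Entpd1 and Nt5e together, of Foxp3 and of each list of cell type markers. The B cell, macrophage and monocyte, neutrophil, erythroid, endothelial and T cell sums are lowest in the stimulated libraries. The sum of the 4 genes is also lowest there (15 to 22.1 TPM), whereas Foxp3 overlaps in all groups.

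The pathways around the 9 genes were followed in lists of known partners. Their counts stand beside 31.9, 30.9 and 4.62% of all genes called in the 3 comparisons, and their medians beside -0.15, 0.01 and -0.18. Of 31 regulators and partners of *Foxp3*, 8 were called higher and 5 lower in stimulated against medium cells, and the list median was -0.15 on the log2 scale, the same as that of all genes tested. In TRAIL-treated against stimulated cells 7 were higher and 7 lower (median 0.21, beside 0.01 over all genes), and against medium 4 were higher and none lower. Without the fold threshold 5 were higher and 3 lower at a limma adjusted p under 0.05 against medium, and 6 and 5 at an unadjusted p under 0.05. The largest rises with TRAIL over Abs alone were those of nuclear receptors induced by TCR signals. *Nr4a1* (Nur77) was at 177 ± 19.0 TPM in medium, 215 ± 21.1 TPM after stimulation and 1926 ± 48.6 TPM with TRAIL (log2 fold change 3.16, limma adjusted p = 4.49e-09). *Nr4a2* was at 5.82 ± 0.58, 15.3 ± 2.74 and 118 ± 7.31 TPM (2.88, limma adjusted p = 3.97e-08). The largest falls were those of *Uhrf1*, which maintains DNA methylation, at 23.7 ± 3.13, 140.4 ± 27.3 and 16.6 ± 2.52 TPM (-3.0, limma adjusted p = 1.44e-07), and *Ezh2*, a histone methyltransferase, at 49.9 ± 3.75, 286 ± 32.2 and 44.8 ± 4.24 TPM (-2.64, limma adjusted p = 2.28e-08). The 4 genes higher in TRAIL-treated than in medium cells were *Nr4a1*, *Nr4a2*, *Nr4a3* and the NF-κB subunit gene *Rel*. *Nr4a3* and *Rel* were named after their values were seen.

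Of 29 genes that regulatory T cells share with activated T cells, 16 were called higher, 4 lower and 9 not called in stimulated against medium cells, with a median of 1.39, beside 12.4% higher and 19.5% lower and a median of -0.15 over all genes tested. With TRAIL against Abs alone 6 were higher and 13 lower, with a median of -0.64, and against medium 6 were higher and 2 lower, with a median of -0.03. *Il2ra* (CD25), the high-affinity chain of the IL-2 receptor, was at 24.0 ± 1.96 TPM in medium, 868 ± 126 TPM after stimulation and 23.2 ± 2.25 TPM with TRAIL (log2 fold change 5.11 and -5.16 in the first and second comparisons, limma adjusted p = 6.18e-10 and 7.75e-10). *Tnfrsf18* (GITR), a costimulatory receptor, was at 57.0 ± 6.32, 542 ± 18.9 and 67.5 ± 2.99 TPM (3.23 and -2.99, limma adjusted p = 1.97e-09 and 4.12e-09). *Ctla4*, an inhibitory receptor for CD80 and CD86, was at 65.4 ± 10.3, 244 ± 16.7 and 171 ± 21.7 TPM, and was called higher with stimulation (1.90, limma adjusted p = 6.44e-07) and higher in TRAIL-treated than in medium cells (1.38, limma adjusted p = 7.52e-05). Between TRAIL-treated and stimulated cells *Ctla4* differed by -0.52 (limma adjusted p = 0.00572), under the fold threshold. *Lag3*, an inhibitory receptor for MHC class II, had the other of the largest falls with TRAIL, from 369 ± 14.0 to 12.0 ± 0.84 TPM (-4.83, limma adjusted p = 9.06e-10), beside 13.5 ± 2.50 TPM in medium. The largest rises were those of the chemokine receptor *Ccr6*, from 1.89 ± 0.24 to 16.6 ± 2.19 TPM (2.60, limma adjusted p = 3.2e-08) beside 43.1 ± 1.06 TPM in medium, and *Areg*, a growth factor of tissue repair, from 0.96 ± 0.18 to 8.24 ± 0.51 TPM (2.24, limma adjusted p = 9.94e-08) beside 0.67 ± 0.04 TPM in medium.

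In the GARP and TGF-beta pathway, 15 of 16 listed genes were tested besides *Lrrc32*, with 2 called higher and 4 lower after stimulation (median -0.18). With TRAIL against Abs alone 6 were higher and 3 lower (median 0.59), and against medium 1 was higher. *Smad7*, an inhibitor of the TGF-beta receptor, was at 66.8 ± 6.97, 20.6 ± 2.38 and 142 ± 10.8 TPM in the 3 groups (log2 fold change with TRAIL 2.73 against Abs alone and 1.08 against medium, limma adjusted p = 2.11e-08 and 0.000161). *Tgfbr2*, a chain of that receptor, was at 121 ± 17.3, 30.7 ± 7.10 and 120.2 ± 12.9 TPM (1.96, limma adjusted p = 3.92e-06). *Tgfb3*, a ligand, fell with TRAIL from 12.3 ± 3.32 to 2.39 ± 0.43 TPM (-1.95, limma adjusted p = 1.66e-05), beside 2.01 ± 0.59 TPM in medium, as did *Furin*, a protease that cleaves the TGF-beta precursor, from 112 ± 23.9 to 35.3 ± 3.19 TPM (-1.61, limma adjusted p = 1.3e-05), beside 30.6 ± 4.63 TPM in medium.

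Of 15 neuropilin partners 10 were tested, with 2 called higher and 3 lower after stimulation, 2 higher and 3 lower with TRAIL against Abs alone, and 1 higher against medium (medians -0.07, -0.11 and -0.33). *Vegfa*, a ligand of neuropilins, was at 1.29 ± 0.55 TPM in medium, 92.6 ± 9.18 TPM after stimulation and 15.9 ± 2.24 TPM with TRAIL (log2 fold change -2.47 against Abs alone and 2.90 against medium, limma adjusted p = 7.05e-07 and 3.11e-06). *Nrp2*, the paralog of *Nrp1*, was at 1.39 ± 0.09, 6.68 ± 2.00 and 0.83 ± 0.08 TPM, higher with stimulation (1.65, limma adjusted p = 2.35e-05) where *Nrp1* was lower. *Plxnb2*, which encodes a semaphorin receptor, rose with TRAIL from 3.81 ± 1.2 to 19.3 ± 1.66 TPM (2.11, limma adjusted p = 4.38e-06), beside 25.6 ± 4.2 TPM in medium.

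In the extracellular nucleotide and adenosine pathway 14 of 20 listed genes were tested, with 2 called higher and 3 lower after stimulation, 3 higher and 3 lower with TRAIL against Abs alone, and none in either direction against medium, where 1 was higher and 3 were lower at a limma adjusted p under 0.05 but under the fold threshold, and 5 had an unadjusted p under 0.05 (medians 0.10, -0.28 and -0.18). *P2rx7*, a receptor for extracellular ATP, was at 25.5 ± 2.14, 6.01 ± 1.47 and 23.2 ± 2.33 TPM in the 3 groups (log2 fold change with TRAIL against Abs alone 1.81, limma adjusted p = 3.8e-06). *Dpp4* (CD26), a peptidase that binds adenosine deaminase, was at 93.6 ± 13.8, 14.3 ± 2.22 and 64.8 ± 2.39 TPM (2.12, limma adjusted p = 3.64e-07). *Adora2b*, an adenosine receptor, was at 0.37 ± 0.12, 4.48 ± 1.23 and 0.31 ± 0.14 TPM (-2.04, limma adjusted p = 3.97e-06), and *Slc29a2*, a nucleoside transporter, at 3.28 ± 0.35, 6.28 ± 1.31 and 1.95 ± 0.28 TPM (-1.29, limma adjusted p = 3.64e-05).

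**Figure D5:**
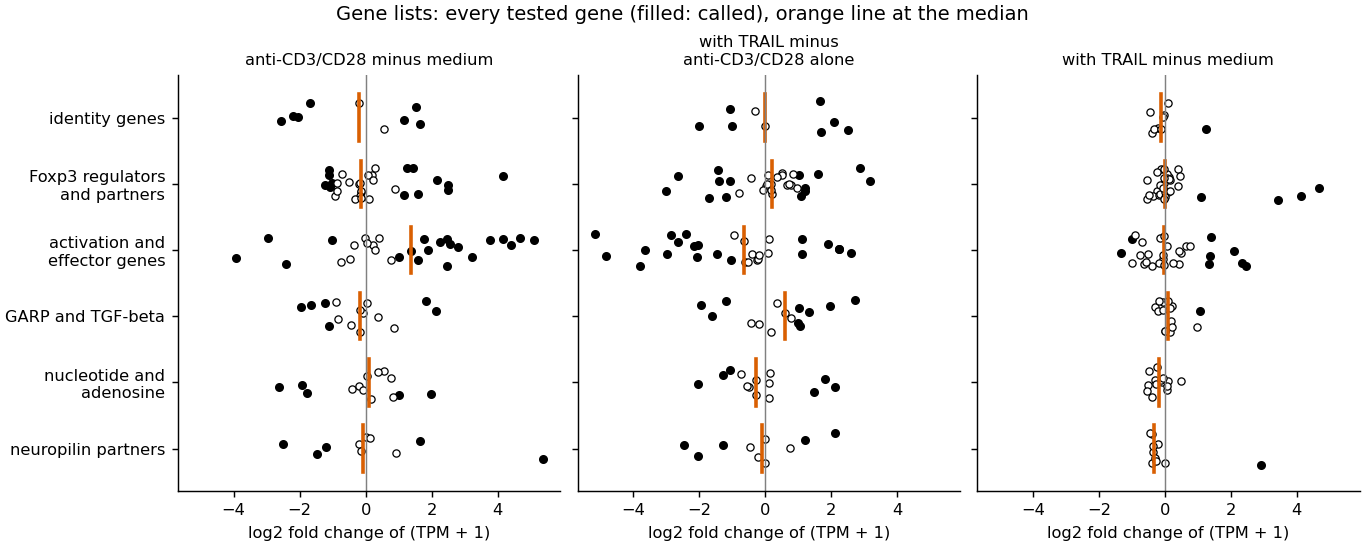
Log2 fold change of (TPM + 1) of every tested gene of each list in the 3 comparisons, filled where called, with the list median as an orange line. The activation and effector genes have a median of 1.39 in the first panel and -0.64 in the second, and most genes of all lists lie near 0 in the last.

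The genes whose pattern was most like that of *Foxp3* over the 9 libraries were not among the other 8. Ranked by Pearson correlation of log2(TPM + 1) with *Foxp3* over 15535 genes, *Bcor*, a co-repressor gene, came first (r = 0.979), before *Whrn* (0.974), *Dag1* (0.973), *Galnt2* (0.972) and *Eps15l1* (0.970). Like *Foxp3*, all 5 were highest in medium replicate 2 and lowest in stimulated replicate 1. For *Bcor* these were 64.4 and 33.7 TPM. Of the other 8 genes *Ikzf2* was placed highest, at rank 5953 (r = 0.33), followed by *Entpd1* (0.30), *Nt5e* (0.27), *Nrp1* (0.26), *Gpr83* (0.20), *Ikzf4* (0.06), *Izumo1r* (-0.15) and *Lrrc32* (-0.16), at rank 12289. These values describe 9 libraries that share the differences between single libraries as well as those between groups, and carry no test.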

How the data were processed

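The authors sequenced paired-end mRNA libraries and deposited one table of TPM values. Per the submitters' processing notes the tools were Trimmomatic 0.36, HISAT2 2.1.0, SAMtools 1.2, StringTie 2.1.2 and DESeq2. The notes name GRCh38 as the build, whereas the paper names GRCm38, and the loci in the table are those of GRCm38 GENCODE genes for 8 of the 9 genes, *Ikzf4* being longer in the table. The annotation release and the strand setting are not given in the sources used here. TPM keeps no read totals, so depth and counting error are unknown.

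Groups and replicate numbers came from the sample labels, and all 9 libraries were used. The lmFit and trended eBayes functions of limma 3.58.1 in R 4.3.3 were applied to log2(TPM + 1) of the 15536 genes that reached 1 TPM in 3 or more libraries, with group as the only term and Benjamini-Hochberg adjustment over all genes tested. On this scale the fold changes of low genes are understated. In 5 simulated tables of 15536 genes, 200 of them changed, the test recovered 193 to 195 with no more than 3 false calls. The changes set there were all larger than the fold threshold, in better expressed genes, in the stimulated group only and with independent normal noise. Far fewer genes changed there than were called between stimulated and medium cells, so these counts do not tell how calls close to the threshold fare. Overlaps, promoters and figures used Python 3.11.15, pandas 2.3.3 and matplotlib 3.10.9. The genes described, the pathway lists and the marker lists were chosen with earlier results of these data known. Every one of the 9 genes was described, and of each pathway list the 2 called genes that rose most and the 2 that fell most in TRAIL-treated against stimulated cells, every gene of a family of 5 or fewer, and *Il2ra*, *Ctla4* and *Tnfrsf18* were named. The values of some genes that this rule names are not reported here. The 5 genes most like *Foxp3* were ranked by Pearson correlation. Alternatives were another pseudocount, filter or scaling, a fit without the variance trend, of the compared groups only or with a replicate block, an adjusted p alone, and the omission of single libraries.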

Additional observations from a re-analysis of the deposited data

How the results depend on the processing

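Over 15 alternatives per comparison, the calls of *Ikzf2*, *Ikzf4*, *Nrp1*, *Entpd1* and *Nt5e* in the first and second comparisons and those of *Lrrc32* against medium kept their direction and stayed past both thresholds. The number of the 9 genes called was 7 to 8 in stimulated against medium, 5 to 7 in TRAIL-treated against stimulated and 1 to 2 in TRAIL-treated against medium cells, the 2 being *Lrrc32* and *Entpd1* at an adjusted p under 0.05 alone. At that threshold alone 10678, 10420 and 5063 genes of all were called in place of 4959, 4800 and 718, since the fold threshold is dropped. A pseudocount of 0.1 gave 1167 genes in the last comparison, and the cause was not tested. Leaving out each library in turn gave 4558 to 5018, 4461 to 4832 and 624 to 791 genes.

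The median over all genes shifted by 0.08, 0.08 and 0.17 (log2) in the 3 comparisons under median-of-ratios scaling, and by 0.19, -0.06 and 0.14 under quantile normalization. The share of higher calls against medium was 38.8% with stimulation and 53.9% with TRAIL, and became 52.1 and 70.6% under quantile normalization and 43.9 and 74.2% under median-of-ratios scaling. With TRAIL it was 24.6% at an adjusted p alone and 47.4% with a pseudocount of 0.1. In TRAIL-treated against medium cells 3 genes that passed no threshold changed sign under median-of-ratios scaling and quantile normalization, *Nrp1* to 0.14 and 0.16, *Ikzf2* to 0.16 and 0.17 and *Nt5e* to 0.053 and 0.047. *Entpd1* was then at -0.21 under both (limma adjusted p = 0.171 and 0.172). Leaving out each library in turn gave *Ikzf2* from -0.063 to 0.026, above 0 without medium replicate 1 or TRAIL replicate 3, and *Nrp1* from -0.103 to 0.029, above 0 without medium replicate 2 or TRAIL replicate 3 (0.0022). *Foxp3* ranged from -0.32 to 0.0057 in stimulated against medium cells, above 0 without stimulated replicate 1, and from -0.20 to 0.11 in TRAIL-treated against stimulated cells, below 0 without stimulated replicate 1, TRAIL replicate 1 or TRAIL replicate 2.

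Same-numbered libraries did not all deviate together, with correlations of their deviations from the group means between -0.31 and 0.29, so the numbers were not taken as pairs. The replicate block gave 4960, 4802 and 714 genes in all and 7, 7 and 1 of the 9 genes, in the order of the comparisons. With it *Gpr83* in TRAIL-treated against medium cells had a limma adjusted p of 0.044, still under the fold threshold. Depth could not be used to weigh the libraries, since TPM keeps none.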
